A study of Mesocricetus auratus with 9 samples.

Results

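Among the 17090 genes counted in Syrian hamster liver, 125 were set apart in early arousal by a rule on abundance, separation and fold. In each, the levels of the 3 early arousal animals lay entirely outside those of the 6 animals sampled late in torpor or in summer. In 64 genes, called high members here, early arousal was above the other animals, and in 61 genes, called low members, it was below them. The members were chosen by their measured levels. A level is given as CPM, the reads of a gene after its library is scaled to a total of 1000000 counted reads. A gene had to reach a mean of 1 CPM over the 9 libraries, which 11077 genes did. All 3 arousal early libraries then had to lie above, or all below, the other 6, and the arousal early mean had to differ at least 1.4-fold in that direction from the torpor late mean and from the summer euthermic mean. The members were 0.578% (high) and 0.551% (low) of the 11077 genes. Because arousal early against the other stages chose these genes, their differences in that direction are described below without a test.

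Each of the 3 stages had 3 animals and 1 liver library per animal. The labels give no replicate numbers, and those used here follow the order of the samples within each stage. Summer euthermic animals (mouth temperature 35.7 ± 0.5 °C at sampling) stood for the season outside hibernation. Torpor late animals (9.0 ± 0.9 °C) and arousal early animals (35.0 ± 2.1 °C) were hibernating and were kept in the dark, and the latter had been roused by handling once torpor had lasted over 3 days. The kind of spread given for these temperatures is not stated, and the labels used here give no strain, sex or age. They give no batch or date either, so a batch that went with stage could not be told apart from it. P-values here set a difference between stages against the spread between libraries of one stage. Handling and rewarming came together in the arousal early animals, so an effect of one cannot be told apart from an effect of the other.

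Hibernating hamsters alternate between torpor, in which metabolism, heart rate and body temperature fall and gene transcription and protein synthesis are strongly slowed, and arousals, in which brown fat and shivering rewarm the body. The Syrian hamster is a facultative hibernator, which enters torpor after exposure to short days and cold. In the liver, arousal is known as a time when transcription and translation resume and when glucose and ketone bodies are supplied to other tissues.

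Libraries held between 29675688 and 47565345 counts. The count table names genes by Ensembl identifier only, and 0 of its identifiers could be paired with a symbol, so what the members do is not described, liver and blood cell markers were not checked, and 2 high and 2 low members are given by identifier. The liver was used whole, so more or fewer cells of a type and more or less RNA per cell cannot be told apart. No member was absent from a library, and the lowest count of any member in any library was 13. No high member had a mean under 1 CPM over the 6 other libraries, so none entered through its arousal early level alone. In low members the rule itself excludes such a mean. Some low members had an arousal early mean under 1 CPM, down to 0.669 CPM, and reached the limit through the other stages.

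Arousal early libraries lay above all others in 255 genes (2.30% of the 11077) and below all others in 307 (2.77%). Of these, 191 and 246 missed the 1.4-fold limit, with median smaller folds of 1.19 and 1.2. The smaller fold is the lesser of the differences from torpor late and from summer euthermic. Conversely, the stage means alone would have passed 233 genes as high and 216 as low, and 169 and 155 of them had an arousal early library within the range of the other 6. The same rule set 48 genes high and 37 low in torpor late, and 327 high and 275 low in summer euthermic, so early arousal had more such genes than late torpor and fewer than summer. These stage counts were not tested against each other. On either side of the limit, the last high member had a smaller fold of 1.401 and the first gene left out 1.3945, and for low members the pair was 1.4013 and 1.3966.

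The division into high and low depended on how libraries were scaled. With library sizes scaled by TMM, which sets the bulk of genes equal between libraries, the rule gave 82 high and 49 low genes, so high genes made up 62.6% of those chosen in place of 51.2%. RLE size factors gave 87 and 47 (64.9%). Totals without the 50 most abundant genes gave 65 and 81 (44.5%). These smaller totals raise every CPM, so the cut at 1 CPM was also looser there, and this was not separated from the scaling. With column totals, a cut at 0.1 CPM gave 86 and 121. TMM kept 63 of the 64 high members and 48 of the 61 low members. The number chosen also rested on arousal early replicate 3, since without it the rule gave 277 high and 183 low genes. Without torpor late replicate 1 it gave 118 and 119. The rule gave 101 low genes without arousal early replicate 1 and 110 without arousal early replicate 2. A rule on fewer libraries asks less of a gene, and this was not separated from the library left out.

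**Figure D1:**
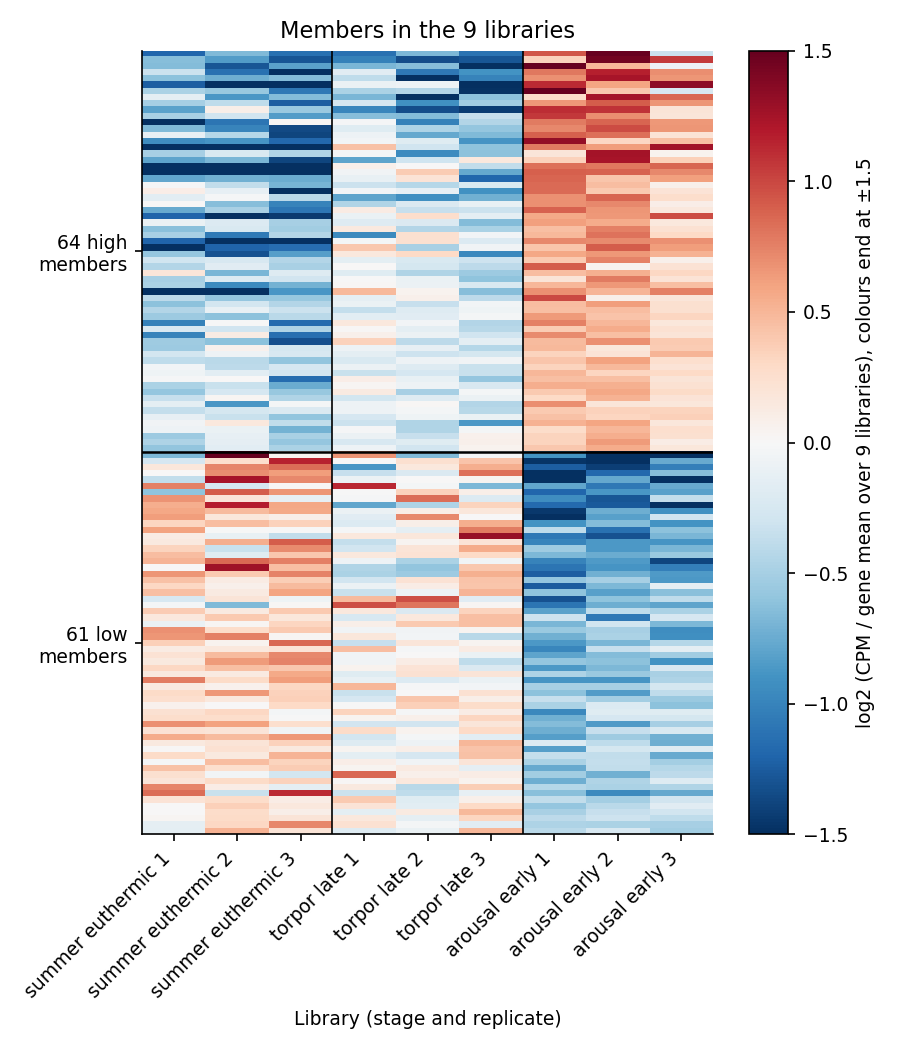
Each row is a member, each column a library, and the colour is the log2 of CPM over the gene's mean of the 9 libraries, with rows ordered by their smaller fold within the 64 high and 61 low members. The arousal early columns are mostly above the mean in the upper block and below it in the lower block, as the choice requires, and arousal early replicate 3 is paler in the upper block, with a median of 0.25 against 0.58 and 0.60.

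Most members differed modestly. High members were a median of 1.63-fold above torpor late, with a range from 1.4 to 4.66. Against summer euthermic their median was 2-fold, with a range from 1.42 to 10.8. Both folds were under 2 in 30 high members and at least 2 in 16. Low members were a median of 1.55-fold below torpor late (1.4 to 3.13) and 1.88-fold below summer euthermic (1.41 to 4.32). Both folds were under 2 in 31 low members and at least 2 in 11. The space between the groups was narrow for many: the arousal early library nearest to the others was under 1.1-fold away from the nearest of the 6 in 21 high and 19 low members. It was at least 1.4-fold away in 9 high and 3 low members.

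**Figure D2:**
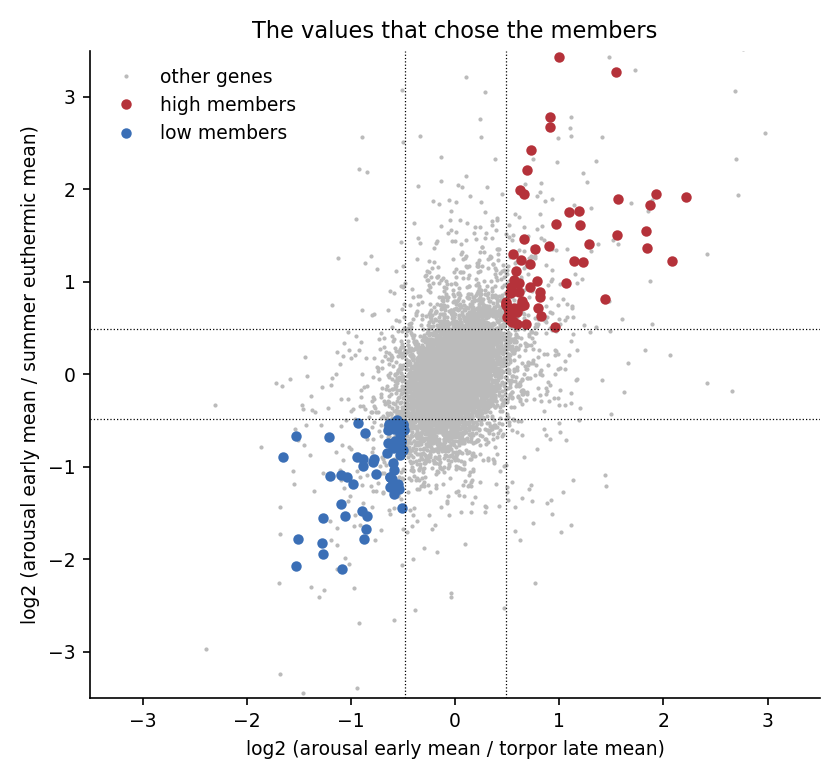
Each point is one of the 11077 genes, by the log2 ratio of the arousal early mean to the torpor late mean (horizontal) and to the summer euthermic mean (vertical), with dotted lines at 1.4-fold and 13 genes beyond the axes. Both ratios use the same arousal early libraries, and the 64 high and 61 low members fill the 2 corners because the rule put them there; grey points in those corners are genes whose libraries overlapped.

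The high member with the largest smaller fold among those reaching 10 CPM in some stage was ENSMAUG00000010558. Its levels were 131.0, 114.7 and 84.2 CPM in the summer euthermic animals, 101.4, 81.5 and 84.3 CPM in the torpor late animals, and 259.5, 560.0 and 424.2 CPM in the arousal early animals. The lowest arousal early animal was 1.98-fold above the highest other animal, and torpor late and summer euthermic overlapped. The mean was 89.1 ± 10.8 CPM in torpor late and 414.6 ± 150.5 CPM in arousal early (SD, n = 3 each), a 4.66-fold difference. Against the summer euthermic mean of 110.0 ± 23.8 CPM (SD, n = 3) the difference was 3.77-fold. The gene had between 3008 and 17810 reads in every library, so counting error is small beside the spread between animals.

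ENSMAUG00000021113 was the next high member. Its levels were 11.7, 7.55 and 10.6 CPM in summer, 11.4, 11.8 and 5.94 CPM in late torpor, and 62.9, 26.0 and 17.4 CPM in early arousal. The arousal early animals differed 3.61-fold among themselves, with replicate 1 far above the other 2, while the other stages overlapped. Its arousal early mean of 35.5 ± 24.2 CPM (SD, n = 3) was 3.65-fold the torpor late mean and 3.57-fold the summer mean.

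Among low members, ENSMAUG00000009448 had the largest smaller fold at 10 CPM or more. Its levels were 42.8, 60.7 and 113.5 CPM in summer, 51.1, 60.2 and 68.7 CPM in late torpor, and 18.5, 14.5 and 30.3 CPM in early arousal. Its widest spread was in summer, where replicate 3 was 2.65-fold replicate 1. The arousal early mean of 21.1 ± 8.23 CPM (SD, n = 3) was 2.85-fold below torpor late and 3.43-fold below summer.

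ENSMAUG00000003150 followed, with 13.6, 20.1 and 21.7 CPM in summer, 6.64, 13.5 and 17.7 CPM in late torpor, and 5.13, 4.56 and 5.95 CPM in early arousal. Torpor late replicate 1 lay close to the arousal early animals, 1.12-fold above the highest of them. The arousal early mean of 5.21 ± 0.699 CPM (SD, n = 3) was 2.42-fold below torpor late and 3.55-fold below summer.

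**Figure D3:**
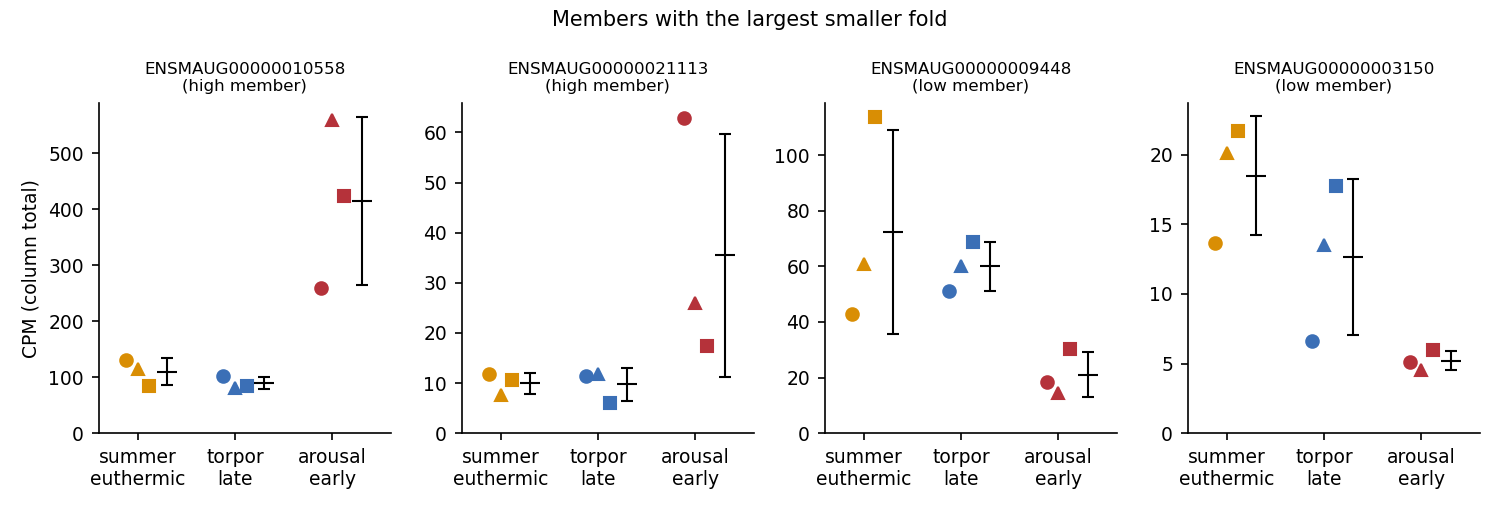
Points are the CPM of each library by stage (circle, triangle and square for replicates 1, 2 and 3), and the bars beside them are the mean and SD of the 3 animals. In both high members arousal early holds the 3 highest values (from 259.5 and from 17.4 CPM), and in both low members the 3 lowest (up to 30.3 and up to 5.95 CPM).

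High members had higher levels over the 9 libraries than low members. The mean of high members over the 9 libraries had a median of 29.3 CPM, compared with 8.18 CPM for low members and 15.8 CPM for the 11077 genes. This mean includes the arousal early levels, which the rule made higher in one set and lower in the other. How much of the difference comes from that was not separated. At least 100 CPM was reached by 19 of the 64 high members (29.7%) and 11 of the 61 low members (18.0%), against 11.1% of all genes. Under 10 CPM lay 18 high and 31 low members. Fewer than 50 reads in some library were found for 10 high and 13 low members, whose values carry more counting error.

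Together the high members took 7315, 6620 and 6273 CPM in summer, 9800, 9748 and 8586 CPM in late torpor, and 15680, 17163 and 15888 CPM in early arousal. One member, with a mean of 3123 CPM, held much of this sum. It was at 1354, 417.8 and 1157 CPM in summer, 2905, 3744 and 2825 CPM in late torpor and 4644, 4915 and 6140 CPM in early arousal. Without it the summed level of the other high members was 5759 ± 570.2 CPM in summer, 6220 ± 597.3 CPM in late torpor and 11011 ± 1250 CPM in early arousal (SD, n = 3 each), so the step from summer to torpor was then smaller than the SD of either stage.

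The low members together took 8657, 10346 and 10029 CPM in summer, 5980, 6463 and 9290 CPM in late torpor, and 3112, 3618 and 4352 CPM in early arousal. Again one member, with a mean of 2593 CPM, weighed on the sum. Its levels were 2604, 4217 and 3989 CPM in summer, 2049, 2223 and 4584 CPM in late torpor and 858.2, 1144 and 1670 CPM in early arousal, so summer and torpor overlapped. Without it the low members summed to 6074 ± 48.1 CPM in summer, 4292 ± 390.5 CPM in late torpor and 2470 ± 214.2 CPM in early arousal (SD, n = 3 each). All 3 torpor late libraries were then below the summer libraries, at 3931, 4239 and 4707 CPM against 6040 to 6129 CPM.

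The median coefficient of variation between animals of one stage was higher in the members than in all genes. The share in which arousal early animals differed at least 2-fold was not larger in members. The rule keeps all 3 arousal early animals on one side of the other 6, which bears on the spread within each stage. These spreads are therefore descriptions and are not read as a trait of the members. The coefficient of variation in arousal early had a median of 16.2% in high members and 14.6% in low members, against 12.5% over the 11077 genes. In summer euthermic the medians were 19.6%, 15.4% and 11.3%, and in torpor late 16.2%, 19.1% and 13.9%, in the same order. Arousal early animals differed at least 2-fold among themselves in 6 high and 3 low members, 9.38% and 4.92%, against 10.3% of all genes. Summer euthermic was the stage of widest spread in 28 of the 64 high members, and torpor late in 26 of the 61 low members. No share over all genes is set beside these 2 counts, so they are not read as a trait of the members.

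Torpor late against summer euthermic is the one comparison the rule did not use, because it treats these stages alike. This comparison asked whether genes set apart in early arousal already differed between late torpor and summer. It is not wholly free of the choice, since members were chosen by their distance from both stages. Over all genes the same rule set 602 apart in summer and 85 in late torpor. How far this enters the shares below was not separated. The torpor late mean was above the summer mean in 50 of the 64 high members (78.1%) and below it in 48 of the 61 low members (78.7%). Over the 11077 genes these shares were 49.9% and 50.1%. Most members thus lay between summer and early arousal in late torpor. The count of high members was 50 under each of the 4 scalings, and that of low members was 48 or 49.

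The torpor late and summer libraries themselves overlapped in 48 high and 46 low members, shares near that of the 11077 genes. Of those genes, 1370 had all torpor late libraries above the summer libraries and 1583 had them all below. All 3 torpor late libraries were above all summer libraries in 14 high members (21.9%, against 12.4% of the 11077 genes) and below them in 2 (against 14.3%). Low members showed the opposite, with 13 below (21.3%) and 2 above. In the 14 high members the arousal early mean was a median of 1.6-fold above torpor late and 3.63-fold above summer. In the 2 high members with torpor late below summer, those medians were 3.47-fold and 2.05-fold.

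All 125 members were tested in a model fitted to all 12780 genes with enough counts (edgeR's quasi-likelihood test, Benjamini-Hochberg adjustment over those genes). Between torpor late and summer euthermic, 4 high members had an adjusted p-value under 0.05 and were higher in torpor late, where 0.673% of all genes tested were, and 0 were lower. Among low members 2 were lower, where 0.696% of all genes were, and 0 were higher. At an unadjusted p under 0.05, edgeR had 17 high members higher and 3 lower, and 14 low members lower and 2 higher, where 11.0% of all genes were higher and 10.5% lower. DESeq2 called 10 high members higher and 2 lower, and 6 low members lower and 0 higher, and it called 4.18% of all genes higher and 4.17% lower. The 2 high members called lower are thus near the share of all genes. The median fitted log2 fold change was 0.22 in high members and -0.19 in low members. Over the tested genes with a mean of 1 CPM or more it was 0.01. The fitted value was within 0.5 of 0 in 71.9% of high and 70.5% of low members, and in 84.2% of those genes.

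The 4 called high members rose from summer to late torpor and again to early arousal. The call and the rule together fix this order, and its reverse in the called low members, so only the levels are described. Their means in summer, late torpor and early arousal were 0.515, 1.75 and 3.29 CPM in one, and 0.953, 3.49 and 6.56 CPM in another. The other two had 7.83, 22.4 and 36.3 CPM, and 20.7, 50.3 and 79.7 CPM. Their log2 fold changes from summer to torpor were between 1.30 and 1.87, with edgeR adjusted p-values from 0.0126 to 0.0384. The 2 called low members went from 687.8 to 367.2 and 200.5 CPM, and from 9.59 to 5.86 and 4.04 CPM (edgeR adjusted p = 0.0444 and 0.0481). In all 6 the 3 torpor late libraries were apart from the summer libraries.

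Most of these calls depended on single libraries, as did those of all genes. No high member was called without summer euthermic replicate 3, torpor late replicate 1 or torpor late replicate 2, and 2 were called without summer euthermic replicate 1 or 2. No low member was called without summer euthermic replicate 1 or 3, torpor late replicate 1 or 2, or arousal early replicate 2, and 1 was called without summer euthermic replicate 2, torpor late replicate 3 or arousal early replicate 3. Over all genes, 86 were called higher and 89 lower with the 9 libraries. Without one summer or torpor library, the highest of these counts were 14 higher and 17 lower, and the lowest were 0 and 0. None of the 4 genes given by identifier was called. Their log2 fold changes, torpor late minus summer euthermic, were -0.30 (SE 0.28, edgeR adjusted p = 0.567) for ENSMAUG00000010558, -0.05 (SE 0.43, edgeR adjusted p = 0.962) for ENSMAUG00000021113, -0.26 (SE 0.37, edgeR adjusted p = 0.732) for ENSMAUG00000009448 and -0.53 (SE 0.32, edgeR adjusted p = 0.369) for ENSMAUG00000003150.

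**Figure D4:**
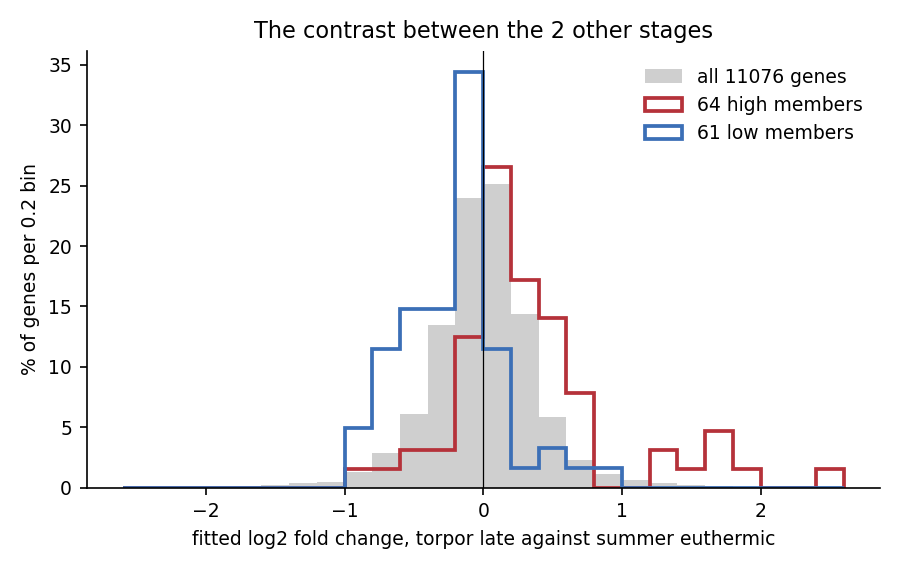
Histograms of the fitted log2 fold change of torpor late against summer euthermic, as the percent of genes in bins of 0.2, for all genes with a mean of 1 CPM or more that were tested (grey), high members (red) and low members (blue), with values past the axis placed in the end bins. The red outline is shifted to the right (median 0.22) and the blue outline to the left (median -0.19) of the grey one (median 0.01), with wide overlap.

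The contrasts that chose the members gave few calls in one case and many in the other, and nothing is read from either. Between arousal early and torpor late, edgeR called 0 members, as it called 0% of all genes tested, although 58 high members were higher and 53 low members lower at an unadjusted p under 0.05, where 7.48% of all genes passed in either direction. DESeq2 called 28 high members higher and 11 low members lower there, and 0.469% and 0.164% of all genes. Between arousal early and summer euthermic, edgeR called 40 of the 64 high members higher, where 2.21% of all genes were higher, and 28 of the 61 low members lower, where 1.60% were lower. Leaving out arousal early replicate 2 reduced these to 7 and 3, and leaving out summer euthermic replicate 3 to 9 and 8. Calls over all genes fell with them, from 282 higher and 205 lower to 21 and 9 and to 23 and 25. They were 18 and 9 without arousal early replicate 1, and 23 high members without summer euthermic replicate 1 or 2, with 16 and 13 low members. Without arousal early replicate 3 there were 31 and 18. In these last 4 fits between 94 and 210 of all genes were called higher and between 72 and 119 lower.

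The 3 arousal early animals did not contribute alike. In high members the median log2 ratio to the mean of the 6 other libraries was 0.97 in replicate 1, 1.01 in replicate 2 and 0.59 in replicate 3. In low members it was -0.95, -0.89 and -0.77. Replicate 3 was the lowest of the arousal early animals in 46 of the 64 high members (71.9%), but over the 11077 genes it was the lowest in 52.5%, where its median log2 ratio was -0.12. TMM scaling moved that median to -0.02. Under it replicate 3 was the lowest in 29 high members, with a median of 0.69 in them, and in 3858 of the 11077 genes. It was the arousal early animal nearest to the other stages, that is the highest, in 28 low members by column totals and in 39 by TMM. Over the 11077 genes it was the highest in 2527 and in 4332, so this rise is not read as a trait of the members.

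To read an animal that had no part in the choice, the rule was applied to the other 8 libraries, and the left-out arousal early animal was then placed among the 6 animals of the other stages. Without replicate 1 the rule gave 76 high genes, and replicate 1 lay above all 6 in 59 of them (77.6%), against 20.9% of all genes. Without replicate 2 there were 71, and replicate 2 lay above all 6 in 57 (80.3%), against 14.5%. Without replicate 3 there were 277, and replicate 3 lay above all 6 in 78 (28.2%), against 6.48%, and within their range in 170. Over all genes it lay below all 6 in 20.3%, so most genes of any kind had it within their range. The median log2 ratio of the left-out animal was 0.72, 0.82 and 0.10 in that order, while that of the pair that chose the genes was between 0.84 and 0.88. By these medians, replicate 3 lay less far above the other stages when left out than replicates 1 and 2 did. Over all genes the median log2 ratio was 0.02, -0.01 and -0.12 in the same order.

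On the low side, replicate 1 lay below all 6 in 50 of 101 genes (49.5%, against 15.0% of all genes). Replicate 2 did so in 65 of 110 (59.1%, against 11.8%) and replicate 3 in 68 of 183 (37.2%, against 20.3%). Their median log2 ratios were -0.55, -0.52 and -0.35. With TMM scaling in the choice and the reading, replicate 3 lay above all 6 in 34.7% of 259 high genes and below them in 28.6% of 220 low genes, where 13.1% and 11.4% of all genes did. The same 6 libraries helped to choose the genes and served as the measure, so part of each share comes from their values, which was not separated. These shares are descriptions of 3 animals, with no test between them.

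**Figure D5:**
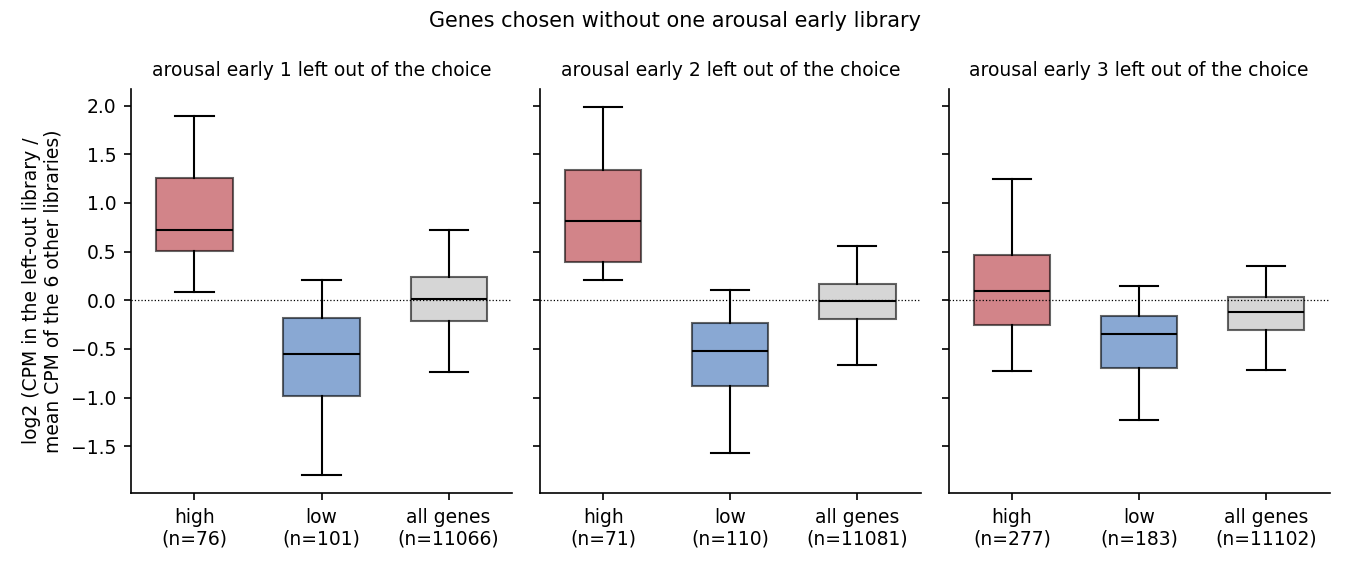
For each arousal early library, boxes show the log2 ratio of its CPM to the mean of the 6 torpor late and summer euthermic libraries, in genes set high or low by the rule without that library and in all genes (median, quartiles and whiskers at the 5th and 95th percentiles). Replicates 1 and 2 sit well above 0 in the high genes (medians 0.72 and 0.82), replicate 3 stays close to 0 (0.10), and in the low genes all 3 are below it.

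The libraries also fall into a side of 4 (arousal early replicates 1 and 2, torpor late replicate 1 and summer euthermic replicate 2) and a side of 5, along which 7 genes differed at least 10-fold with no overlap. The labels name no such division. The 7 genes held 0 members, but the rule fixed this, so nothing about the members is read from it. The rule puts every arousal early library beyond all libraries of the other stages. In the 7 genes arousal early replicate 3 lay apart from replicates 1 and 2, with libraries of the other stages on both sides. Within the side of 4, the median fold in the direction of the set was 1.88 in high and 1.76 in low members, with at least 1.4-fold in 59 of 64 and 54 of 61. Within the side of 5, where arousal early replicate 3 is the single arousal early library, the medians were 1.63 and 1.8, with at least 1.4-fold in 54 and 47. The rule fixes the direction of these folds within each side, and its 1.4-fold limit bears on their size. They are descriptions only, and nothing is read from them about the division. What is particular to replicate 3 and what belongs to its side cannot be told apart.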

How the data were processed

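The deposited values are whole-number counts of reads, not normalised, for each Ensembl gene in the liver of each animal. Per the labels' protocols, 437 ng of total liver RNA entered a stranded poly(A) preparation read from a single end to 75 bp. STAR 2.7.0f is named in the submitters' processing notes. The counting program, strand setting, genome build and annotation are not given in the sources used here, so overlapping or near-identical genes may share reads. Poly(A) selection leaves other RNA unseen.

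CPM here is count over column total. Models used R 4.3.3 and edgeR 4.0.16 on the counts (filterByExpr, TMM, quasi-likelihood, all 9 libraries, a term per stage). SEs are the log2 fold change over the root of F. Alternatives were DESeq2 1.42.0, limma-voom (limma 3.58.1), other scalings, filters, thresholds and leaving out each library. The scripts were tested on simulated data. No 2 libraries of a stage held identical counts.

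The members, the lists and the tests were chosen with earlier results of these data known. The rule for naming took members reaching 10 CPM in some stage and ranked them by the lesser of their 2 folds. The planned gene lists and cell markers were not run, for want of symbols. With 3 animals against 3, an exact test of one value cannot go below p = 0.1, so tests come from the model across all genes. The left-out readings under TMM were added after the data were seen.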

Additional observations from a re-analysis of the deposited data

How the results depend on the processing

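A minimum of 1.2-fold gave 146 high and 185 low genes, and 2-fold gave 16 and 11. A mean of at least 0.1 CPM gave 121 low genes, and at least 10 CPM gave 30. Across the fits of the rule that left out one replicate each, high genes ranged from 64 to 277 and low genes from 58 to 183. The scalings stayed within 1.5 times of the 64 and 61 members. Between torpor late and summer euthermic, DESeq2 called 10 high members higher and 2 lower, and 6 low members lower. A covariate for the 4 and 5 library division gave 7 high members higher and 1 lower, with 1.55% of all genes higher and 1.66% lower. No filter on counts gave 1 low member lower, and fitting only these 2 stages gave 0. At an adjusted p under 0.01, 0 high and 0 low members were called. Leaving out one replicate each, high members called higher ranged from 0 to 4 and low members called lower from 0 to 2. High members called lower and low members called higher were 0 in each of these. The median log2 fold changes kept their sign in all fits and moved by less than the spread between libraries, from 0.14 to 0.26 in high and from -0.32 to -0.15 in low members. Between arousal early and torpor late, DESeq2 called 28 high and 11 low members, no filter gave 3 high members and the covariate 1, and leaving out one replicate each gave 0 to 2 high and 0 low members. Between arousal early and summer euthermic, 6 high and 2 low members passed 0.01, and leaving out one replicate each gave 7 to 36 high and 3 to 21 low members. For each of these, the cause was not tested. The log2 fold change of ENSMAUG00000021113 between torpor late and summer euthermic ranged from -0.23 to 0.19 when one replicate was left out, and changed sign without summer euthermic replicate 1 (0.12) and without torpor late replicate 3 (0.19). That of ENSMAUG00000009448 ranged from -0.51 to 0.23 and changed sign without summer euthermic replicate 3. No paired analysis was possible because each stage had different animals.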

Other observations

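Besides the 125 members, 34 high and 81 low genes met every part of the rule other than the mean of 1 CPM, so the balance of high and low genes turned towards low at weak levels. The 2 low members whose torpor late libraries all lay above the summer libraries were 2.87-fold and 3.13-fold lower in early arousal than in late torpor, and 1.59-fold to 1.86-fold lower than in summer. The 2 high members whose torpor late libraries all lay below the summer libraries were 2.71-fold and 4.23-fold higher in early arousal than in late torpor, and 1.76-fold to 2.34-fold higher than in summer.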
